A study of Canis lupus familiaris with 4 samples.

Results

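The genes described here encode the solute carriers (SLC and SLCO families) and the ATP-binding cassette (ABC) proteins, the main families that move sugars, amino acids, ions, metals, lipids and drugs across membranes. They were read in MDCK cells, a kidney epithelial line from the dog, carrying the E2-2 transfectant E22A or E22B. E2-2 is a basic helix-loop-helix transcription factor encoded by TCF4, and E22A and E22B were taken as its isoforms A and B. Members were the genes whose single symbol in the platform annotation has the form SLC-number-A-number, SLCO-number-letter-number or ABC-letter-number, with a value on at least 1 array of each transfectant. This gave 97 genes, 78 SLC or SLCO and 19 ABC, of 107 such genes on the array. Of the 97, 91 had a clone measured on all 4 arrays, against 8657 such features over the whole array.

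Every array set RNA of a transfectant against RNA of MDCK-CMV control cells, with one in Cy3 and the other in Cy5. There were 2 arrays of E22A and 2 of E22B. All cells grew in DMEM with serum, penicillin-streptomycin and fungizone, and the labels name no further agent. The design text calls each transfectant a clone and its arrays a dye swap, so each transfectant is 1 biological sample. The SD given below is over its 2 arrays. The labels do not say when or how many cultures were harvested, nor whether both arrays of a transfectant used the same RNA, so whether this SD is technical only is not known. Arrays are numbered within a transfectant by accession, which sets no order in time. Ratios carry no expression level, so whether the cells express their defining epithelial markers could not be read from these files.

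Values are log2 ratios, with the base assumed from convention. The labels leave the sign unsettled. The sign used here makes CDH1, the gene of E-cadherin, positive in E22B, and a positive value is said to lie on the E-cadherin side, a negative one on the other side. With Cy5 in the numerator, the usual choice, the E-cadherin side means higher in the transfectant. With Cy3 there it means lower, which would place CDH1 in the direction known for E2-2, a repressor of E-cadherin. No source used here states the numerator. For E22B the titles and channel labels give the same dyes, Cy3 on array 1 and Cy5 on array 2, so the sign of array 1 was changed. The labels of E22A array 1 conflict, with Cy5 in its title and Cy3 in its channel field. The name in that title reads EE2A rather than E22A, while its protocol field names E22A cells, and it was taken as E22A. E22A values below follow the channel labels, by which the transfectant was in Cy3 on both arrays. A dye bias of a gene therefore stays in its E22A mean. By the titles each E22A array 1 value below changes sign. The titles match the dye swap named in the design text, while the channel labels of E22A do not. As deposited, the E22A arrays correlated at r = 0.41 and the E22B arrays at r = -0.46 over the 91 transporter genes, and at 0.37 and -0.41 over all 8657 features. Turned by the titles, the E22A arrays thus run against each other, so the direction of E22A is not settled.

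Solute carriers use ion gradients, exchange or facilitated diffusion, while most ABC transporters spend ATP to push substrates out of the cytosol. In kidney epithelium their split between the apical and the basolateral membrane gives the tubule its directed transport of glucose, amino acids, phosphate, salt and organic anions. MDCK cells are a standard model of this polarity, and polarity depends on E-cadherin junctions.

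Transporters as a group lay close to the control. The 91 genes had a median of -0.021 in E22B and -0.0069 in E22A, beside -0.0022 and -0.0085 for all features. In E22B 84 of the 91 lay within 0.5 of 0 (92.3%, against 91.1% of all features), and in E22A 84 did as well (92.3%, against 93.0%). In E22B 29 transporter genes lay on the E-cadherin side of both arrays and 33 on the other side, beside 34.8% and 35.6% of all features. The mean E22B values ran from -0.92 (ABCA1) to 1.20 (SLC25A36). No transporter gene reached 2-fold on both arrays of either transfectant, where 0.635% of all features did so in E22B and 0.381% in E22A.

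At 1.5-fold on both arrays there were 2 transporter genes in E22B, SLC25A36 and SLC27A4, both on the E-cadherin side, where 2.52% of all features met this rule. On the other side 0 transporter genes met it, against 0.543% of all features. In E22A 1 gene met it, SLC12A9 on the other side, against 0.578% of all features on that side. On the E-cadherin side of E22A 0 transporter genes met it, against 1.33%. The shares of transporter genes, 2.2% in E22B and 1.1% in E22A, lay near or below those of all features on either side, 3.06% and 1.91%. By the titles 0 transporter genes met the rule in E22A, against 0.323% of all features.

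The pooled test, limma on the mean of each transfectant against 0 with Benjamini-Hochberg adjustment, treats E22A and E22B as 2 replicates of E2-2 transfection and leaves out the spread of the control. It called 0 of 91 transporter genes by the channel labels, where 0.0116% of all features (1 of 8657) passed. An unadjusted p under 0.05 was found for 10 of the 91, against 13.4% of all features. By the titles it called 0 of 91 and 0.0% of all features, with 2 of the 91 (ABCA1 and SLCO2A1) at an unadjusted p under 0.05 against 3.27% of all features. The smallest adjusted p of a transporter gene was 0.076 (limma) by the channel labels, for ABCA1, and 0.982 by the titles. With 2 values per gene the fit has 1 residual degree of freedom before moderation. By the channel labels it did not call CDH1 or FN1, the gene of fibronectin, either. Each had an adjusted p of 0.068 (limma).

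**Figure D1:**
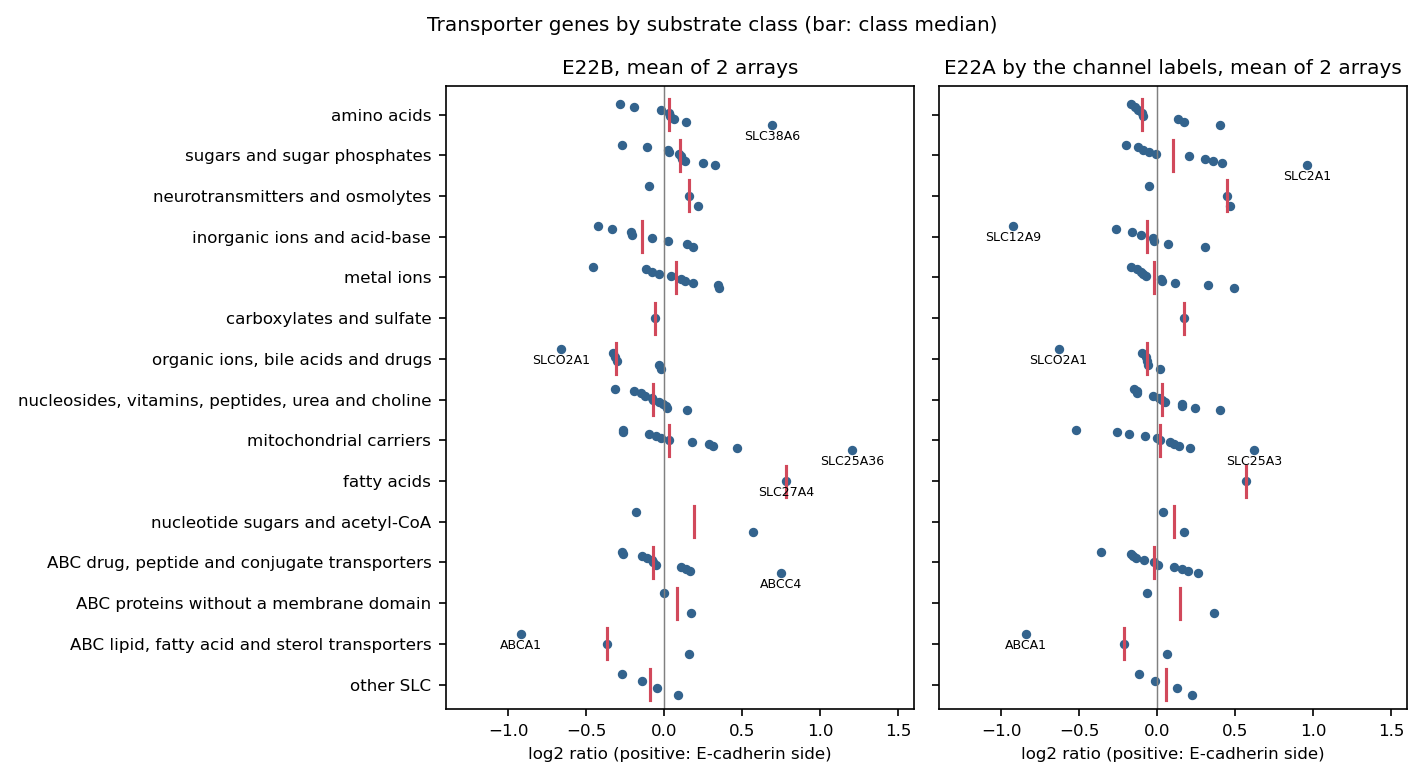
Mean log2 ratio of each of the 91 transporter genes measured on all 4 arrays (points), by substrate class, in E22B (left) and in E22A by the channel labels (right). Red bars are class medians, and positive values lie on the E-cadherin side. Most points sit within 0.5 of 0, and SLC25A36, SLC27A4, ABCC4 and SLC38A6 on one side and ABCA1 and SLCO2A1 on the other stand off in E22B.

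The fatty acid class held 1 measured gene, SLC27A4, which encodes FATP4, a fatty acid transport protein with acyl-CoA synthetase activity. It stood at 0.69 and 0.87 on the E22B arrays and at 0.69 and 0.45 on the E22A arrays. Each of its 4 values is on the E-cadherin side. The nearest E22A and E22B values both round to 0.69. Its means were 0.78 ± 0.12 in E22B (SD, n = 2 arrays), a 1.72-fold ratio, and 0.57 ± 0.17 in E22A. It was represented by 2 clones. The first stood at 0.71 and 0.96 in E22B and 0.62 and 0.44 in E22A, the second at 0.68 and 0.78 and 0.75 and 0.46, so their E22B means lay 0.10 apart. The pooled mean was 0.67 (SE 0.11) with an adjusted p of 0.111 (limma), and 0.982 by the titles, which cancel its E22A arrays to -0.12 ± 0.80.

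Genes of the mitochondrial carrier family SLC25 numbered 11, with a median of 0.029 in E22B and 0.019 in E22A. Most members of this family exchange metabolites and nucleotides across the inner mitochondrial membrane. SLC25A36, a pyrimidine nucleotide carrier, stood apart from the other SLC25 genes. Its E22B arrays gave 0.97 and 1.43, a mean of 1.20 ± 0.33 or 2.3-fold, and its E22A arrays -0.38 and -0.67, a mean of -0.52 ± 0.21. The transfectants lay on opposite sides without overlap, -1.73 apart (E22A minus E22B). It rests on 1 clone. SLC25A36 was the 1 transporter gene, of 91, that differed between the transfectants by 1 or more without overlap of arrays, against 1.5% of all features. By the titles it was again the 1 such gene, at -1.35, against 1.69%. Both values use the same control RNA, and with 1 sample per transfectant the difference was not tested.

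Other mitochondrial carriers were smaller in size. SLC25A32, a carrier for folate or FAD, stood at 0.40 and 0.52 in E22B and 0.084 and 0.20 in E22A. Its 2 clones on all arrays differed in E22B, at 0.11 and 0.46 for the first and 0.69 and 0.59 for the second. The second clone alone lay beyond 1.5-fold on both E22B arrays. SLC25A3, the phosphate carrier that feeds ATP synthesis, stood at 0.43 and 0.14 in E22B and further out, at 0.78 and 0.46, in E22A. SLC25A26, which imports S-adenosylmethionine, had a mean of -0.26 ± 0.095 in E22B and 0.083 ± 0.20 in E22A. Within this class of 11, 5 genes lay on the E-cadherin side of both E22B arrays and 3 on the other side, beside 34.8% and 35.6% of all features.

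Amino acid transporters numbered 10, of which 8 were measured on all arrays, with a median of 0.033 in E22B and -0.097 in E22A. Furthest out in E22B was SLC38A6, a member of the family of sodium-coupled neutral amino acid carriers, at 0.90 and 0.48 in E22B and 0.37 and 0.43 in E22A. All 4 values lay on the E-cadherin side, and array 2 of E22B missed 1.5-fold. Its pooled mean was 0.55 (SE 0.12) with an adjusted p of 0.171 (limma), and 0.982 by the titles. SLC1A5, the glutamine transporter ASCT2, lacked a value on E22A array 2. It stood at 0.40 and 0.80 in E22B and at 0.41 on E22A array 1, with the same sign on the 3 arrays.

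The heavy chain SLC3A2 (4F2hc), which carries light-chain amino acid exchangers to the membrane, stood at -0.070 and 0.14 in E22B and 0.012 and -0.30 in E22A, changing side within each transfectant. SLC1A4, a neutral amino acid exchanger, had means of 0.032 ± 0.057 and 0.13 ± 0.076. Both belong, with SLC1A5, to the transporters known to be induced by the amino acid response. Asparagine synthetase ASNS, an enzyme of the same response, lay at 1.77 and 1.15 in E22B and at 1.55 and 1.08 in E22A, so the 3 measured transporters lay below it in size on every array that measured them. SLC7A9, the light chain of renal cystine uptake, had means of 0.066 ± 0.023 in E22B and 0.17 ± 0.042 in E22A. The glutamate transporters SLC1A1 and SLC1A2 lay on the other side of all 4 arrays, with E22B means of -0.28 ± 0.087 and -0.20 ± 0.069.

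Among 10 sugar and sugar phosphate transporters the median was 0.10 in E22B and 0.099 in E22A. SLC2A1 encodes GLUT1, the basal glucose transporter of most cells. It gave -1.01 and -0.83 on the E22B arrays as deposited, before any turning, and -2.04 and 0.12 on the E22A arrays. The E22B arrays carry opposite dyes, and SLC2A1 kept its sign on them, so after turning they lay on opposite sides, at 1.01 and -0.82, and its mean of 0.095 ± 1.29 says little. It was the 1 transporter gene at 1.5-fold on both E22B arrays but on opposite sides, against 0.474% of all features. Both clones followed this pattern in E22B, with 1.02 and -1.12 for the first and 1.00 and -0.52 for the second. In E22A they were alike on array 1 (1.91 and 2.17) and on opposite sides on array 2 (-0.44 and 0.20). The direction of GLUT1 is therefore not given by these arrays.

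SLC2A9, a urate transporter, was positive on all 4 arrays, at 0.24 and 0.41 in E22B and 0.13 and 0.28 in E22A. SLC2A5, the fructose transporter GLUT5, stood at 0.34 and 0.49 in E22A and closer to 0, at 0.078 and 0.14, in E22B. SLC2A2 (GLUT2), which releases glucose at the basolateral membrane of the proximal tubule, stood at 0.043 and 0.0039 in E22B and -0.10 and 0.087 in E22A. SLC2A3 (GLUT3) and the insulin-responsive SLC2A4 (GLUT4) had E22B means of 0.13 ± 0.22 and -0.11 ± 0.010. In clones measured on every array, none of these 5 carriers reached 1.5-fold on any array. A further SLC2A2 clone, with a value on E22A array 2 alone, stood at -0.94 there.

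**Figure D2:**
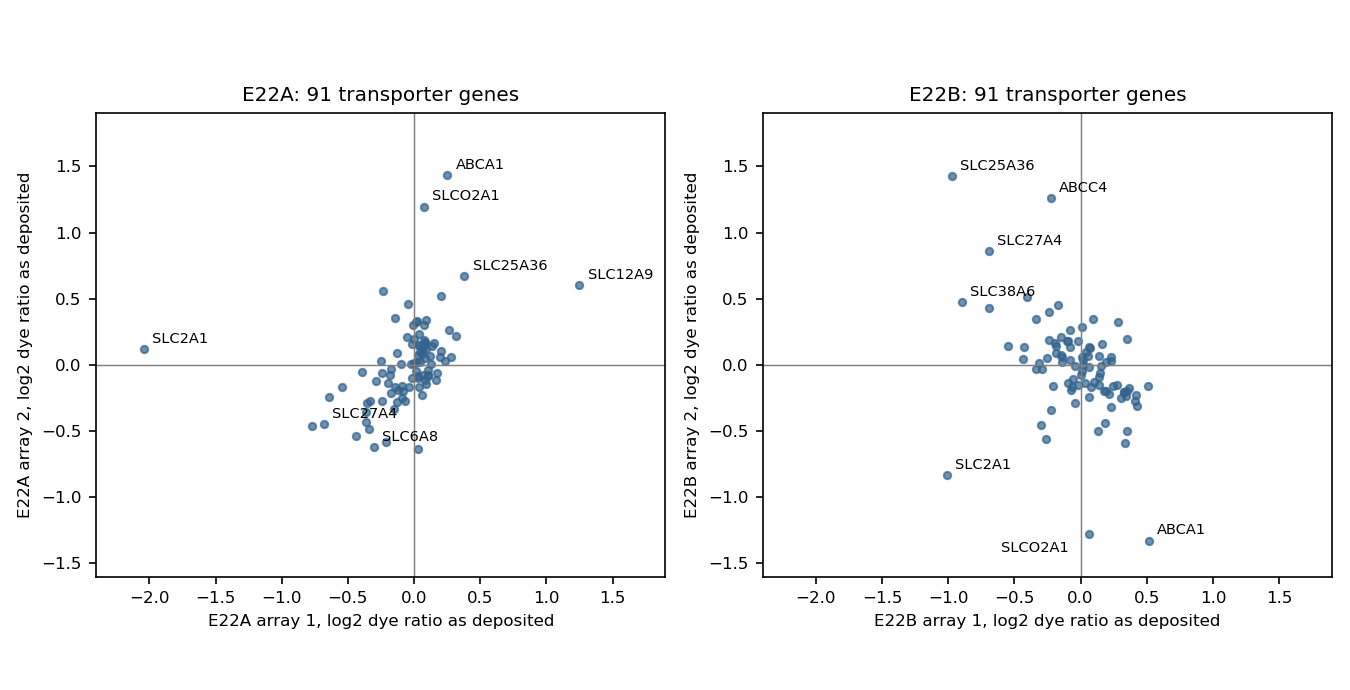
Log2 dye ratios as deposited of the 91 transporter genes, array 2 against array 1, for E22A (left) and E22B (right). The E22B genes run from upper left to lower right (r = -0.46), with SLC2A1 far off this line at lower left, while the E22A genes run from lower left to upper right (r = 0.41).

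Transporters of inorganic ions and acid-base numbered 9, with 8 on all arrays, and had a median of -0.14 in E22B and -0.068 in E22A. In E22B 5 of the 8 lay on the other side of both arrays and 2 on the E-cadherin side, beside 35.6% and 34.8% of all features. SLC12A9, a member of the cation-chloride cotransporter family, stood at -1.25 and -0.60 in E22A, a mean of -0.92 ± 0.45 or 1.9-fold in size, and at -0.35 and -0.49 in E22B, a mean of -0.42 ± 0.098. All 4 values lay on the other side, with a difference of -0.50 between the transfectants (E22A minus E22B), which was not tested. By the titles the E22A arrays oppose each other, giving 0.32 ± 1.31. The pooled mean was -0.67 (SE 0.15) with an adjusted p of 0.19 (limma), and 0.988 by the titles. With the arrays scaled alike, E22A array 2 fell under 1.5-fold and SLC12A9 no longer met the rule.

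SLC12A2 (NKCC1), the basolateral sodium-potassium-chloride cotransporter, changed side within each transfectant, at -0.29 and 0.34 and -0.028 and 0.64. The sodium-phosphate cotransporters SLC20A1 and SLC20A2 had E22B means of -0.21 ± 0.092 and -0.34 ± 0.10. Both changed side within E22A, SLC20A1 at 0.23 and -0.56 and SLC20A2 at -0.032 and 0.17. SLC26A2, a sulfate transporter, lay on the other side of all 4 arrays, furthest in E22A at -0.31 and -0.22. SLC12A4 (KCC1) lacked E22A array 2 and stood at 0.27 on E22A array 1 and -0.15 and -0.034 in E22B. SLC5A5, the iodide symporter, stood at 0.20 and 0.18 in E22B and -0.020 and -0.020 in E22A.

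Metal ion transporters numbered 10, with medians of 0.075 in E22B and -0.025 in E22A. SLC30A5 (ZnT5), which loads zinc into the secretory pathway, stood at -0.33 and -0.58 in E22B and at 0.44 and 0.54 in E22A. The transfectants lay on opposite sides, 0.95 apart, under the limit of 1 that 1.5% of all features met without overlap. By the titles the E22A mean was 0.048 ± 0.69. SLC11A2 (DMT1), the iron importer of endosomes and the gut, stood at 0.34 and 0.36 in E22B and 0.13 and -0.087 in E22A. SLC31A1 (CTR1), the copper importer, stood at 0.36 and 0.29 in E22A and near 0, at -0.064 and -0.0033, in E22B. The iron exporter SLC40A1 (ferroportin) had means of -0.079 ± 0.16 and -0.17 ± 0.22.

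All 6 genes of the organic ion, bile acid and drug class lay on the other side of both E22B arrays, beside 35.6% of all features, with a median of -0.31. In E22A 5 of the 6 did so by the channel labels, beside 34.8% of all features, and the median was -0.069. SLC22A6 (OAT1), the basolateral uptake carrier for organic anions in the proximal tubule, stood at -0.51 and -0.15 in E22B and -0.077 and 0.12 in E22A. SLC22A4 (OCTN1) and SLC22A9 had E22B means of -0.31 ± 0.25 and -0.30 ± 0.17, and SLC22A25 and SLCO4C1 of -0.032 ± 0.044 and -0.022 ± 0.019. On E22B array 1 SLC22A25 lay at -0.0010. The 2 SLCO4C1 clones lay on opposite sides in E22B, at 0.15 and 0.13 and at -0.17 and -0.20. The place of SLCO4C1 among the 6 thus rests on their average. SLC22A9 and SLC22A25 are close relatives, and cross-hybridisation between them was not tested. None of these 5 genes reached 1.5-fold on any array.

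SLCO2A1, the prostaglandin transporter, stood at -0.063 and -1.26 in E22B and -0.071 and -1.20 in E22A, near 0 on the first array of each and beyond 2-fold on the second. Its 2 clones differed. The first stood at -0.14 and -0.25 in E22B and 0.16 and 0.070 in E22A, the second at 0.018 and -2.28 and -0.30 and -2.46. The large values thus belong to 1 clone on 1 array of each transfectant. The pooled mean of -0.65 (SE 0.091), with an adjusted p of 0.101 (limma) and 0.982 by the titles, sees neither this split between arrays nor that between clones.

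Transporters of nucleosides, vitamins, peptides and choline numbered 11, with medians of -0.072 in E22B and 0.029 in E22A. SLC28A1 (CNT1), the sodium-coupled pyrimidine nucleoside transporter, stood at -0.42 and -0.22 in E22B and -0.026 and 0.085 in E22A. SLC29A3 (ENT3), a lysosomal nucleoside transporter, rested on 5 clones, whose E22B means ran from -0.089 to 0.13 and whose E22A means ran from 0.16 to 0.35. No other transporter gene had as many clones on all arrays. SLC5A6, the sodium-dependent multivitamin transporter, stood at 0.22 and 0.59 in E22A and -0.059 and 0.080 in E22B.

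Of 2 measured genes for nucleotide sugars and acetyl-CoA, SLC35A3, which brings UDP-N-acetylglucosamine into the Golgi, stood at 0.69 and 0.44 in E22B and 0.070 and 0.27 in E22A. Its E22B array 2 missed 1.5-fold, and another clone without E22A array 2 stood lower, at 0.46 and 0.13 in E22B. SLC33A1, the acetyl-CoA carrier, had an E22B mean of -0.18 ± 0.0066. In the class of neurotransmitters and osmolytes, SLC6A8, the creatine transporter, stood at 0.31 and 0.62 in E22A and -0.23 and 0.039 in E22B. Its clones had E22A means of 0.85 and 0.078. SLC6A2, the noradrenaline transporter, had means of 0.16 ± 0.13 in E22B and 0.45 ± 0.29 in E22A, and SLC6A16, an orphan of the same family, had 0.22 ± 0.029 and -0.053 ± 0.031. SLC13A1, the renal sulfate cotransporter and the 1 measured gene of the carboxylate and sulfate class, had -0.062 ± 0.11 and 0.17 ± 0.12. Of 4 SLC genes left outside the classes, the furthest in E22B was SLC75A1, at -0.27 ± 0.048.

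ABCA1, the exporter that loads cholesterol and phospholipid onto apolipoprotein A-I, had the E22B mean furthest on the other side. It stood at -0.51 and -1.32 in E22B and -0.25 and -1.43 in E22A. Each of the 4 values lay on the other side, and array 2 of each transfectant lay beyond 2-fold while array 1 did not reach 1.5-fold. Its means were -0.92 ± 0.57 in E22B, 1.89-fold in size, and -0.84 ± 0.84 in E22A. The pooled mean was -0.88 (SE 0.093) with an adjusted p of 0.076 (limma), and 0.982 by the titles, where the E22A mean was -0.59 ± 1.19. It rests on 1 clone. Of the other lipid and sterol genes, ABCA7 stood at -0.43 and -0.30 in E22B and 0.022 and 0.10 in E22A, and ABCA12, a lipid transporter of skin, had means of 0.16 ± 0.25 and -0.21 ± 0.17.

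The class of ABC transporters of drugs, peptides and conjugates numbered 12, with 11 on all arrays. It had medians of -0.073 in E22B and -0.024 in E22A. The class was set by family, ABCB and ABCC, and not every member, ABCC8 and ABCC9 among them, exports such substrates. ABCB1 (P-glycoprotein), the apical multidrug exporter, stood at 0.30 and -0.44 in E22B and -0.20 and -0.52 in E22A. Its close relative ABCB4, a phosphatidylcholine floppase, stood at 0.26 and -0.55 in E22B and -0.016 and -0.33 in E22A, with the sign of ABCB1 on every array, and cross-hybridisation was not tested here either. ABCC2 (MRP2), the apical exporter of conjugates, had means of -0.079 ± 0.11 and 0.0065 ± 0.10. ABCB6, a porphyrin transporter, lay on the other side of all 4 arrays, at -0.27 ± 0.058 in E22B from 2 clones whose means lay 0.023 apart.

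ABCC4 (MRP4), an exporter of cyclic nucleotides and prostaglandins, stood at 0.22 and 1.27 in E22B and 0.15 and 0.17 in E22A. Its clones differed in E22B, with means of 1.49 and -0.0015, from 0.44 and 2.55 for the first and 0.012 and -0.015 for the second, so its E22B mean of 0.75 ± 0.74 rests on 1 clone and mostly on array 2. Of 21 transporter genes with more than 1 clone on all arrays, ABCC4 was the 1 whose clones lay 1 or more apart in E22B. The clones of SLCO2A1 lay 0.93 apart in E22B and 1.49 apart in E22A. How often clones of a gene lie this far apart over the whole array was not counted. ABCF1 and ABCF2, which carry ABC domains but no membrane span and act in translation, had E22B means of -0.00058 ± 0.23 and 0.17 ± 0.025, and ABCF2 stood at 0.36 and 0.36 in E22A.

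**Figure D3:**
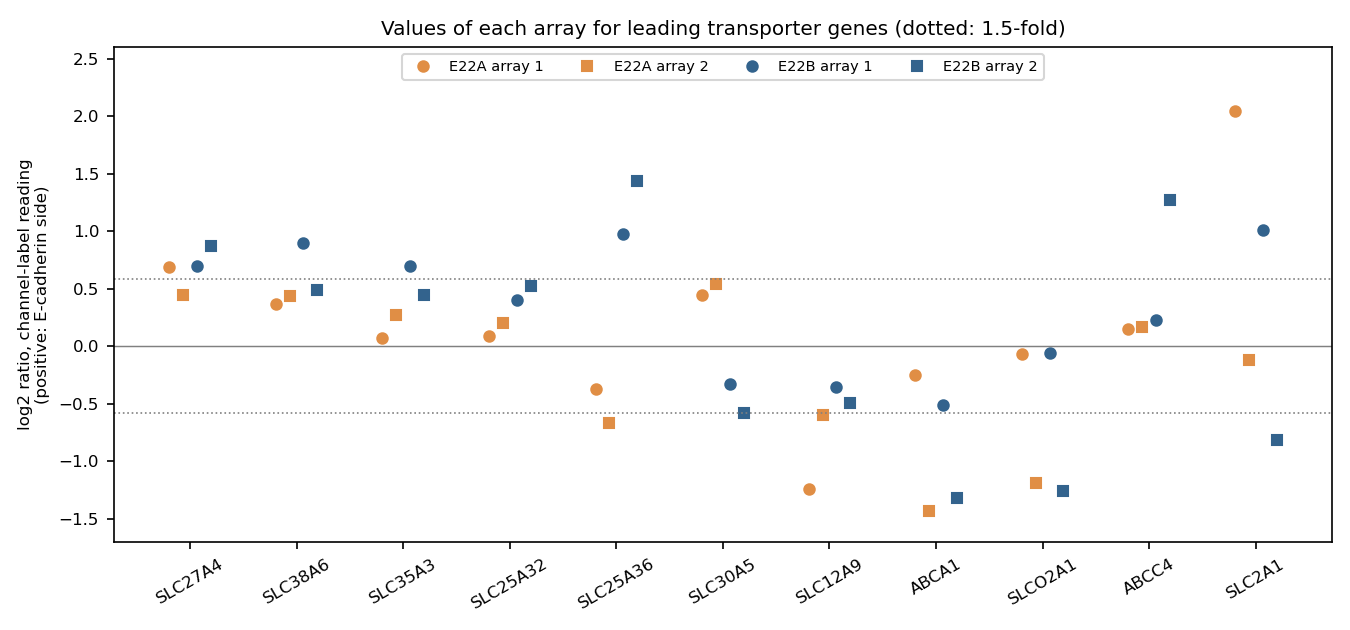
Log2 ratio of each array, turned by the channel labels, for 11 transporter genes: circles are array 1 and squares array 2, orange E22A and blue E22B, and dotted lines mark 1.5-fold. SLC27A4 has all 4 points between 0.45 and 0.87, SLC25A36 has the transfectants on opposite sides, and ABCA1, SLCO2A1 and SLC2A1 split by array.

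The remaining members with a missing array were ABCC3, ABCD4, ABCG8 and SLC1A3. Their available values on single arrays, averaged over clones, ran from -0.16 to 0.21. A further ABCG8 clone, with a value on E22A array 2 alone, stood at 0.33 there. The 10 genes on the array without enough values were ABCD2, ABCE1, SLC10A2, SLC25A33, SLC25A5, SLC38A9, SLC39A8, SLC47A2, SLC66A2 and SLC71A2. Of 31 renal and amino acid response transporters listed for naming, 11 were members. The other 20, among them SLC9A3, SLC5A2, SLC34A1, SLC7A5 and SLC7A11, were not analysed here.

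Other transport genes were read beside the carriers. Of 14 measured ATP pumps, 2 water channels, 19 ion channels and 2 regulators, 0 reached 1.5-fold on both arrays of either transfectant (3.06% of all features did in E22B and 1.91% in E22A), and limma called 0 in either reading. The ATP pumps, which include sodium pump and vacuolar proton pump subunits, had an E22B median of -0.034, and the ion channels -0.030. AQP3, a basolateral water and glycerol channel, stood at 1.29 and -0.12 in E22B and at 0.80 and -0.090 in E22A. SGK1, a kinase that raises sodium transport, stood at 1.72 and -0.40 and at 0.85 and -1.03. Like SLC2A1, both were far on the E-cadherin side on array 1 of each transfectant and not on array 2. Of 5 measured epithelial markers CDH1 alone met the 1.5-fold rule in each transfectant, and of 5 mesenchymal markers FN1 (fibronectin) alone, on the other side. The E22B means of these markers ran from -0.39 to 1.04 and from -1.83 to 1.77. Most ends of these ranges rest on 1 array. EPCAM, an epithelial adhesion molecule, stood at 2.56 and -0.48 in E22B and at 2.57 and -0.17 in E22A. SPARC, a matrix protein, stood at -3.54 and -0.11 and at -3.43 and 0.25. Both were far from 0 on array 1 of each transfectant and not on array 2. COL1A2, a collagen chain, stood at 0.32 and 3.21 in E22B, far out on array 2 alone. The part of these markers in the transporter values was not tested.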

How the data were processed

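The members, substrate classes and gene lists were chosen with earlier results of these data known. Each deposited value is a log2 ratio between the 2 dyes of an array (27648 spots, 13824 clones, 4 arrays), with the base assumed (column medians as deposited from -0.00991 to 0.00294). How spots were scanned, corrected, filtered and normalised is not given in the sources used, nor is the numerator dye. Precision is limited by the number of arrays, and signal over background was not used here. Of the clones, 8744 had 1 symbol in the platform annotation, 327 had several and 4753 had none, and only the first kind named a gene. The symbol of 89 of the 97 members occurs in the dog RefSeq table (assembly UU_Cfam_GSD_1.0). Members without a match there, by symbol or by synonym, were not left out. The clones are annotated to human genes and were hybridised with dog RNA, so ratios also depend on the match between species.

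The 2 spots of a clone were averaged (r between duplicates from 0.901 to 0.981). Arrays were centred at the median clone. Clones measured on every array were averaged by gene, and a gene without such a clone takes the mean of its available clones and enters no count or fit. Other clones stayed as their own feature. A gene was counted at 1.5-fold or 2-fold only where both arrays of a transfectant lay beyond it on the same side. The pooled test used lmFit and eBayes of limma 3.58.1 under R 4.3.3, with p-values adjusted by Benjamini-Hochberg over 8657 features and a threshold of 0.05. Run on simulated data with 8657 features, it called 46 of 50 changed by 1 log2 unit and 49 of 50 changed by 2. It also called 13 of 8457 unchanged features. On the arrays, by the channel labels, it did not call CDH1, with means of 0.93 in E22B and 1.01 in E22A. Nor did it call FN1, with means of -1.72 and -2.28. Each had an adjusted p of 0.068 (limma). The simulated spreads were drawn from the model that the fit itself had estimated, as independent normal noise. The same change was added to both transfectants. The rates above thus describe the test on its own model, and may not hold for these arrays, whose transfectants share a control RNA. How closely the simulated data match the spread of these arrays was not tested. Genes named were those at 1.5-fold on both arrays of a transfectant, the 12 furthest on the same side of both E22B arrays, the furthest in each class, those with clones 1 or more apart in E22B or at 2-fold on opposite sides, and the list of renal and amino acid response transporters. Others were chosen after their values were seen, for their role. Alternatives covered centring, scaling, duplicate spots, clones, the E22A reading, incomplete features and each array left out, and all clones averaged was added after the data were seen. Planned promoter motif counts were not run, as no sequences were used here.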

Additional observations from a re-analysis of the deposited data

Results flagged for a closer look

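SLC25A36, the mitochondrial pyrimidine nucleotide carrier, had both E22A arrays on one side of the control and both E22B arrays on the other, with a difference of -1.73 (E22A minus E22B, log2, channel labels). The difference was not tested, because each transfectant is 1 sample, and it rests on 1 clone. By the titles the E22A arrays lie on both sides of 0 and the difference is -1.35. If both E22A arrays are turned, all 4 arrays lie on the E-cadherin side. No group held the 4 samples that a check for outlying samples needs.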

How the results depend on the processing

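The 2 transporter genes at 1.5-fold in E22B, the absence of any at 2-fold in either transfectant and the absence of any limma call among transporter genes kept their values under every alternative that leaves all arrays in. The E22A count of 1 at 1.5-fold became 0 with the arrays scaled alike and 0 by the titles. The mean of SLC12A9 in E22A, the gene behind that count, reversed to 0.32 by the titles and to 0.92 if both E22A arrays are turned. The E22A median moved to -0.016 with arrays scaled alike, -0.015 with only close duplicate spots and 0.0069 with the sign turned. The turned sign also raised the genes differing between the transfectants from 1 to 5. The number of all features called by limma, 1 in the main setting, was 4 with arrays scaled alike, 50 with only close duplicate spots, 8 with the median over clones, and 0 without centring, by the titles, with the sign turned or with incomplete features. The cause was not tested.

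With each array left out in turn a call rests on the array that remains. The 1.5-fold count then ran from 2 to 6 in E22B and from 1 to 7 in E22A, the 2-fold count from 0 to 4 and from 0 to 2, and the median from -0.021 to -0.00073 and from -0.016 to -0.0042. Genes differing between the transfectants ran from 1 to 4, and features called by limma from 0 to 31, the 31 without E22B array 2. Each value already sets a transfectant against the control on the same array. Arrays of E22A were not paired with arrays of E22B, because the labels give no replicate numbers. Signal over background was not used here, so dim and bright spots could not be weighed apart.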
